A study of Mus musculus with 4 samples.

Results

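A set of 7 genes for liver hormones and their receptors was followed in whole liver of alcohol-fed mice with or without Brg1 in hepatocytes: Fgf21, Gdf15, Angptl4, Angptl6 and Fetub, which encode secreted proteins, and Klb and Fgfr4, which encode a co-receptor and a receptor for fibroblast growth factors (FGFs). They were found by gene symbol among the 22103 entries of the expression table, all 7 had a single entry, and all 7 passed the filter on low values that left 12346 genes for testing. RNA-seq had been performed on 2 wild type (WT) livers and 2 livers of hepatocyte-specific Brg1 knockout (LKO) littermates, labelled KO. In the LKO mice an Alb-Cre transgene, active in hepatocytes, cuts Smarca4 f/f alleles. Whether every other liver cell kept the gene was not tested. Whether the WT mice carried floxed alleles is not given in the sources used here. All 4 mice had drunk alcohol for 15 days according to the labels. The methods of the study describe 8-week male mice given an ethanol liquid diet and then a single gavage of ethanol, and alcohol-free livers were not analysed here, so a level below is the level under alcohol.

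Hepatokines are proteins that the liver releases into the blood to act on other organs or back on the liver. FGF21 is a starvation and stress hormone, made under the control of PPARα, ChREBP and ATF4, which signals through FGF receptors only in cells that also carry the co-receptor β-klotho, the product of Klb. In the liver β-klotho pairs with FGFR4 and relays the gut hormone FGF15, which restrains bile acid synthesis. GDF15 is a stress-induced member of the TGF-β superfamily that acts on hindbrain neurons. ANGPTL4, a PPAR target, inhibits lipoprotein lipase, ANGPTL6 is a related angiopoietin-like protein, and fetuin-B is a protease inhibitor secreted by hepatocytes. Brg1, the product of Smarca4, is the ATPase of the SWI/SNF chromatin remodelling complex.

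In none of the 7 genes did the LKO and WT means differ by more than the 2 livers of the more variable genotype. The largest differences were those of Fgf21, whose mean in LKO livers was 64.3% of the WT mean, and Gdf15, whose mean was 133% of it, and both varied by more than 2-fold between livers of the same genotype. Fetub and Angptl4, the most abundant of the 7, stayed within a 1.46-fold range over all 4 livers.

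The Fgf21 gene (chr7:45613886-45615490, minus strand, 3 exons, GRCm38) had the lowest ratio of LKO to WT of the set. The bases before its start are shown for the short motifs they hold, which are described further on. They were read from RefSeq (GRCm38.p6, chr7:45615491-45615740, written 5′ to 3′ on the strand of the gene, with the last base next to the start of the listed transcript). Capitals mark the matches to 3 of the motifs searched on both strands.

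Fgf21 promoter: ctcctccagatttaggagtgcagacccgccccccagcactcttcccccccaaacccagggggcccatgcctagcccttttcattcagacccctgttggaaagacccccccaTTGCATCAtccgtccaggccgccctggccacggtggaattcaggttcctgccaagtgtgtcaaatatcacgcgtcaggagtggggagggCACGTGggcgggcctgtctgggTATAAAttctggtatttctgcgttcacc

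The first match, on the opposite strand, is to TGATGNAA, the core of the amino acid response element bound by ATF4 and its partners, and lies 139 to 132 bases before the start. A CACGTG E-box follows at 50 to 45 bases and a TATAAA box at 28 to 23 bases, and the 3 matches do not overlap. Of 32536 different RefSeq windows of the same 250 bases before a start, 3.4% held TGATGNAA, 6.04% held CACGTG and 12.3% held TATAAA. The direct repeat bound by PPARs was present in 0.0338% of the windows and had no match in this one, which says only that these letters are not there. The window before the listed start of Gdf15 held 1 match, a CACGTG at 83 to 78 bases, and is not shown because it lies partly within an exon of another Gdf15 transcript. The windows of Angptl6, Klb and Fgfr4 held no match, and Fetub had a TATAAA 31 to 26 bases before the start of 1 of its 2 entries. Of the 7 genes, 6 had an entry.

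The deletion was checked first. Smarca4 was at 1.78 and 1.95 FPKM (fragments per kilobase of transcript, scaled to the library total) in the WT pair and at 0.608 and 0.579 FPKM in the LKO livers. The groups did not overlap, and the log2 fold change, on log2(FPKM + 0.1) as for every gene below, was −1.50 (SE 0.34), with an unadjusted p = 0.000548 and an adjusted p = 1 by limma. The threshold of the study, an unadjusted p under 0.05 and a more than 2-fold difference, was kept. It was passed by 121 of the 12346 tested genes (0.980%), of which 54 were higher (0.437% of the tested genes) and 67 lower (0.543%) in LKO livers, and by no gene at an adjusted p under 0.05, while 247 genes had an unadjusted p under 0.05. With 2 livers a group, an exact permutation test of a single gene cannot give a two-sided p below 0.333. The SEs, intervals and p-values by limma rest on a spread drawn towards that of tested genes of a like level. The estimated depth was 72586000 to 80912200 reads a liver. The 2 LKO livers were the least alike of the 6 pairs of livers (root mean square log2 difference 0.66 over 7733 genes), and LKO1 was nearest to WT1 (0.42). Because LKO1 and LKO2 stood this far apart, the value of each of the 7 genes without a liver is given below where it turns the direction or the call.

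**Figure D1:**
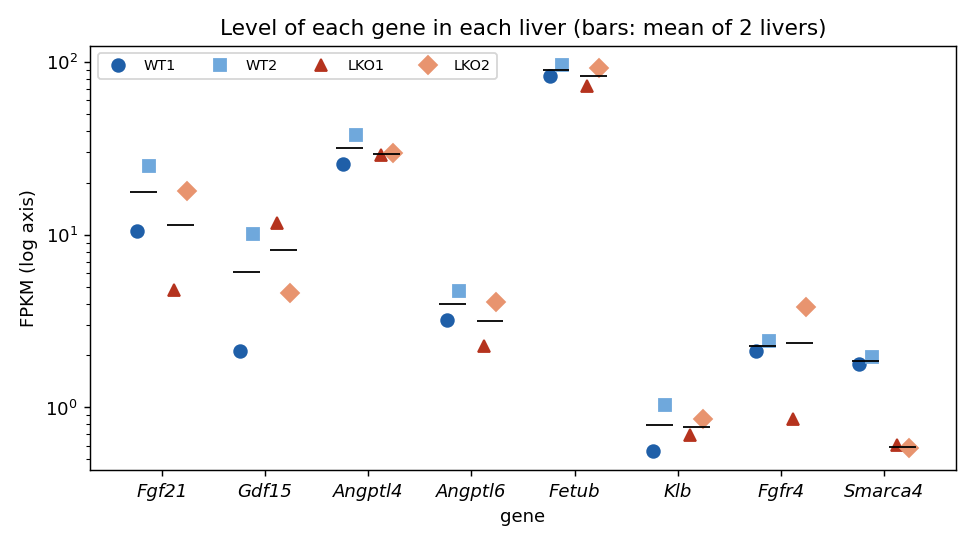
FPKM on a log axis of the 7 genes and of Smarca4 in each liver, with bars at the mean of the 2 livers of a genotype. The WT and LKO points overlap for all 7 genes and are apart for Smarca4, whose LKO points lie at 0.608 and 0.579 FPKM.

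Fgf21 was at 10.5 and 24.9 FPKM in WT1 and WT2 and at 4.80 and 18 FPKM in LKO1 and LKO2. WT2 was the highest and LKO1 the lowest, and LKO2 stood between the 2 WT livers, so that the genotypes overlapped. The means were 17.7 ± 10.2 FPKM in WT and 11.4 ± 9.31 FPKM in LKO livers (SD, n = 2 each). This gave a log2 fold change of −0.79 (SE 0.54, 95% interval −1.95 to 0.37, unadjusted p = 0.164, adjusted p = 1 by limma), an interval that runs from 0.259 to 1.29 times the WT level. Between the 2 LKO livers Fgf21 differed 3.74-fold and between the WT livers 2.38-fold. Without LKO1 the log2 fold change was 0.15, and without LKO2 it was −1.73 and passed the threshold, as it did without WT1 (−1.41). Without WT2 it was −0.17. The size thus moved with each of the 4 livers, the call changed without WT1 or LKO2, and the direction turned without LKO1. A fit without a liver took its spread from the pair of the other genotype, drawn towards that of all tested genes. It holds no measure of how livers vary within the genotype left with 1 sample, so its calls describe these livers only.

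Gdf15 (chr8:70629393-70632095, minus strand, 2 exons) was at 2.12 and 10.1 FPKM in WT1 and WT2 and at 11.7 and 4.63 FPKM in LKO1 and LKO2. The lowest value was that of WT1 and the highest that of LKO1, and the ranges overlapped. On the log2 scale the difference was 0.65 (SE 0.59, 95% interval −0.62 to 1.91, unadjusted p = 0.29, adjusted p = 1 by limma), so that a level between 0.652 and 3.76 times that of WT lay within the interval. The 2 WT livers differed 4.77-fold, more than the LKO livers, which differed 2.52-fold. Leaving out WT2 gave 1.75 and leaving out LKO2 gave 1.30, both past the threshold. Leaving out WT1 gave −0.45 and leaving out LKO1 gave −0.01. Fgf21 and Gdf15, both counted among stress-induced hormones, did not follow the same order of livers: the ratio of Fgf21 to Gdf15 was 4.95 and 2.47 in the WT livers, 3.88 in LKO2 and 0.412 in LKO1, the only liver in which Gdf15 was the higher of the pair.

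Angptl4 (chr17:33773750-33781830, minus strand, 7 exons) was at 25.8 and 37.7 FPKM in the WT pair and at 29.1 and 29.7 FPKM in the LKO pair. Both LKO values lay between the 2 WT values. Their log2 fold change was −0.09 (SE 0.34, 95% interval −0.81 to 0.64, unadjusted p = 0.799), and the interval, 0.569 to 1.56 times the WT level, did not reach a 2-fold change in either direction. Without WT2 the value was 0.19, and without WT1 it was −0.36.

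Angptl6 (chr9:20873808-20879727, minus strand, 6 exons) was at 3.20 and 4.72 FPKM in the WT pair and at 2.27 and 4.08 FPKM in the LKO pair. LKO1 was below and LKO2 within the WT range. The log2 fold change was −0.34 (SE 0.38, 95% interval −1.16 to 0.47, unadjusted p = 0.384), and it was 0.07 without LKO1. The gene overlaps A230050P20Rik on the opposite strand, and whether reads were counted by strand is not given in the sources used here.

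Fetub (chr16:22920237-22939752, plus strand, 8 exons) was the most abundant of the 7, at 83.3 and 96.0 FPKM in the WT pair and at 73.0 and 92.8 FPKM in the LKO pair. The log2 fold change was −0.12 (SE 0.32, 95% interval −0.82 to 0.58, unadjusted p = 0.717) and 0.05 without LKO1. The interval, from 0.568 to 1.49 times the WT level, lay within 2-fold.

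Klb (chr5:65348314-65384007, plus strand, 5 exons) was the least abundant, at 0.560 and 1.03 FPKM in the WT pair and at 0.691 and 0.855 FPKM in the LKO pair. Both LKO values lay between the WT values, at a log2 fold change of 0.01 (SE 0.37, 95% interval −0.79 to 0.81, unadjusted p = 0.976), which leaves 0.579 to 1.75 times the WT level within the interval. Its sign turned without WT1 (−0.37) and without LKO2 (−0.12).

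Fgfr4 (chr13:55152640-55168759, plus strand, 18 exons) was at 2.11 and 2.42 FPKM in the WT pair, and at 0.854 and 3.84 FPKM in LKO1 and LKO2. The WT livers were close together, and the LKO livers lay on either side of them, 4.5-fold apart. For the genotypes the log2 fold change was −0.28 (SE 0.51, 95% interval −1.39 to 0.82, unadjusted p = 0.589). Without LKO1 it was 0.74 and without LKO2 −1.31, which passed the threshold.

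**Figure D2:**
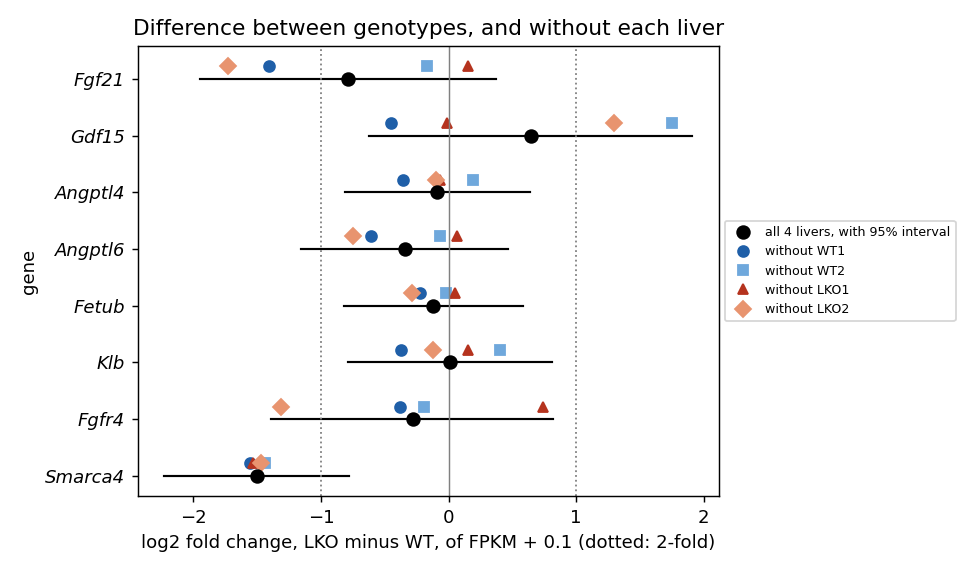
Log2 fold change of LKO against WT livers for each gene: black points and lines are the value from all 4 livers with its 95% interval, coloured points the value without 1 liver, and dotted lines mark a 2-fold difference. All 7 intervals cross 0, while that of Smarca4 runs from −2.23 to −0.78.

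Over the set, 0 of the 7 genes passed the threshold in either direction, against 0.980% of all tested genes, and 0 of 7 reached an unadjusted p under 0.05, with adjusted p = 1 by limma for each. In none of the 7 were both LKO livers outside both WT livers, a pattern that 20.7% of the tested genes had. The log2 fold change was below 0 for 5 of the 7 and above 0 for 2, while it was below 0 for 53.9% of all tested genes. Its median was −0.12 over the 7 genes, beside −0.02 over all tested genes. Leaving out 1 of the 4 livers in turn changed the direction of all 7, as it did for 68.3% of the tested genes. The intervals of Angptl4, Fetub and Klb lay within a 2-fold change, and those of the other 4 reached beyond it, so that a 2-fold difference in 1 direction lay within the interval of Fgf21, Gdf15, Angptl6 and Fgfr4.

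The 7 genes differed in how far livers of the same genotype lay apart. The pooled SD within a genotype was 1.28 on the log2 scale for Gdf15, 1.13 for Fgf21 and 1.03 for Fgfr4. These spreads were larger than those of 99.4%, 98.9% and 98.5% of the tested genes, whose median was 0.30. Angptl6 (0.49) and Klb (0.41) lay nearer to that median, and Angptl4 (0.27) and Fetub (0.20) below it. With 2 livers a group, an SE from the gene's own livers alone would equal its pooled SD. The limma SEs were smaller than that for Gdf15 (0.59), Fgf21 (0.54), Fgfr4 (0.51), Angptl6 (0.38) and Klb (0.37). They were larger for Angptl4 (0.34) and Fetub (0.32). Counting error was small beside the spreads within a genotype. Fgf21 rested on an estimated 357 to 1895 reads a liver and Gdf15 on 265 to 1408, and the liver with the fewest had a counting SD of 5.29% and 6.14%. Klb had the fewest reads of the set, 160 to 290 (a counting SD of 7.91% at the fewest), and Fetub the most, 8803 to 11841. These errors cover counting alone.

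**Figure D3:**
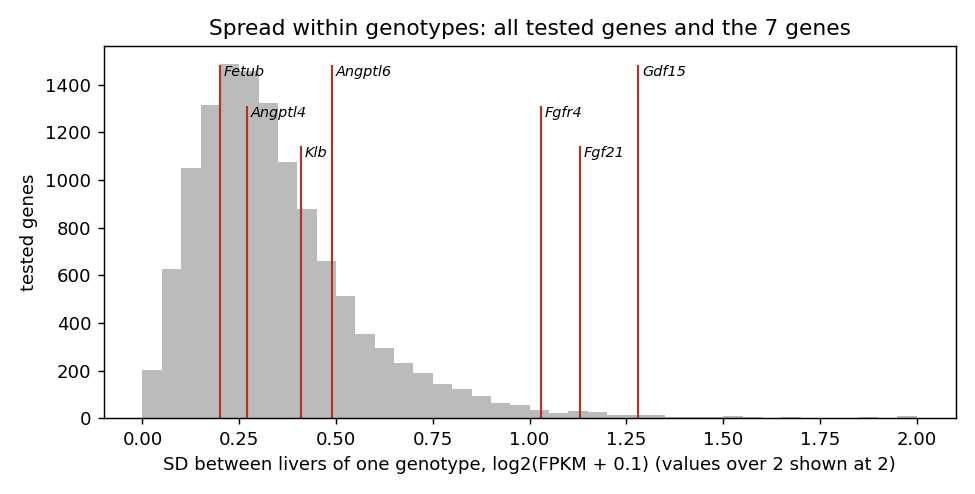
Distribution over the 12346 tested genes of the pooled SD between livers of one genotype, on log2(FPKM + 0.1), with red lines at the 7 genes. Gdf15, Fgf21 and Fgfr4 stand in the right tail between 1.03 and 1.28, and Fetub and Angptl4 lie to the left of the median of 0.30.

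The livers differed in rank as well. WT2 had the highest value of 5 of the 7 genes and was highest for 42.1% of all tested genes. LKO2 had the highest value of 1 of the 7 (Fgfr4) and was highest for 41% of all tested genes, and LKO1 was highest for 1 (Gdf15) and for 12.2%. LKO1 had the lowest value of 4 of the 7 (Fgf21, Angptl6, Fetub and Fgfr4) and was lowest for 46.6% of all tested genes, and WT1 had the lowest of the other 3 and was lowest for 31.5%. In length-normalised level, Fetub stood above Angptl4, and Angptl4 above Fgf21, with no overlap of their ranges over the 4 livers. From there on each gene overlapped with the next in the order Fgf21, Gdf15, Angptl6, Fgfr4 and Klb. Angptl6 was nevertheless above Fgfr4, and Fgfr4 above Klb, within each of the 4 livers, and Fgf21 was above Gdf15 in 3 of 4.

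The receptor side was described with the rest of the FGF receptor family. Fgfr4 made up 28.1% and 20.6% of the summed FPKM of Fgfr1 to Fgfr4 in the WT livers, 9.37% in LKO1 and 29.3% in LKO2. The ratio of Klb to Fgfr4 was 0.266 and 0.423 in WT, 0.808 in LKO1 and 0.223 in LKO2, so the co-receptor was below the receptor in every liver, and nearest to it in LKO1. Fgfr2 was listed at 3.95 and 7.51 FPKM in WT and 6.93 and 8.34 FPKM in LKO livers, above Fgfr4 in all 4. The transcript listed for Fgfr2 is annotated as a nonsense-mediated decay form, and its FPKM depends on the length of that form. Fgfr3 was at 1.2 and 1.57 FPKM in WT and at 1.05 and 0.785 FPKM in LKO livers (log2 fold change −0.54, 95% interval −1.29 to 0.21, unadjusted p = 0.146 by limma). The LKO pair of Fgfr3 lay under both WT values. Fgfrl1, a receptor without a kinase domain, overlapped between genotypes (log2 fold change −0.40, unadjusted p = 0.361). Of the 6 other receptor and klotho genes, 4 were tested and none passed the threshold.

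**Figure D4:**
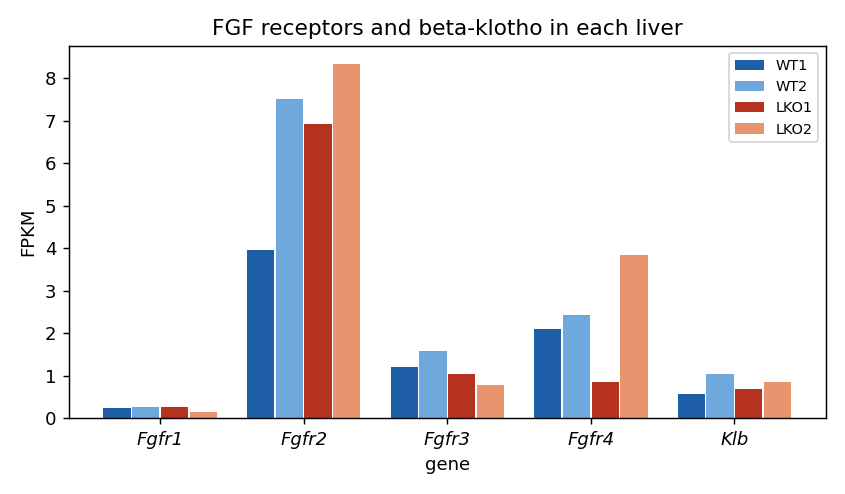
FPKM of Fgfr1 to Fgfr4 and Klb in each liver, as bars from 0. Fgfr2 is the tallest in every liver, and the 2 LKO bars of Fgfr4, at 0.854 and 3.84 FPKM, lie on either side of the WT bars.

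Among the FGF ligands other than Fgf21, 3 of 21 were tested and 10 were at 0 in all 4 livers. Fgf1, a mitogen that binds all FGF receptors, was the most abundant at 27.4 and 24.7 FPKM in WT and 21.6 and 27.7 FPKM in LKO livers (log2 fold change −0.09, unadjusted p = 0.794), again for a listed decay transcript. Fgf2 was at 0.937 and 1.41 FPKM in WT and at 1.04 and 1.87 FPKM in LKO livers. Fgf11, an intracellular relative that is not secreted, was at 0.183 and 0.383 FPKM in WT and at 0.0716 and 0.168 FPKM in LKO livers (log2 fold change −0.79, unadjusted p = 0.0734), with no overlap, and passed the threshold without LKO2 (−1.11). Fgf15, the gut ligand of FGFR4 with β-klotho, was looked at for that role and was at 0 in all 4 livers, where a count of 0 allows up to 0.0205 to 0.0228 FPKM (3 reads). Gfral, the GDF15 receptor, was likewise at 0, and its co-receptor Ret had an estimated 1 read in each of 2 livers.

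The hepatic response to FGF15 comprises Nr0b2, which encodes the repressor SHP, and the bile acid synthesis genes Cyp7a1 and Cyp8b1. Nr0b2 was at 3.37 and 5.73 FPKM in WT, 1.27 FPKM in LKO1 and 11.1 FPKM in LKO2, with the 2 LKO livers 8.74-fold apart (log2 fold change −0.20, SE 0.68, unadjusted p = 0.768). It passed the threshold in opposite directions without LKO1 (1.31) and without LKO2 (−1.72). Cyp7a1, the rate-limiting enzyme of the pathway, was at 0.838 and 2.75 FPKM in WT and at 0.423 and 2.82 FPKM in LKO livers (log2 fold change −0.41, unadjusted p = 0.545 by limma). Its value was 0.83 without LKO1 and −1.65 without LKO2, where it passed the threshold. Like Fgfr4, both were lowest in LKO1 and highest in LKO2. Cyp8b1 had another order, at 40.3 and 87.2 FPKM in WT and 79.9 and 65.7 FPKM in LKO livers (log2 fold change 0.29, unadjusted p = 0.466, and −0.27 without WT1).

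Downstream of the receptors, 27 of 30 signal transduction and feedback genes were tested and none passed the threshold. Their log2 fold changes ran from −0.59 to 0.49 with a median of −0.04. The adaptor gene Grb2 was at 19 and 19.9 FPKM in WT and at 19.9 and 22.7 FPKM in LKO livers. The immediate early gene Egr1 was at 13.9 and 13.3 FPKM in WT, 7.82 FPKM in LKO1 and 17.8 FPKM in LKO2. Plcg1, which encodes a phospholipase recruited by FGF receptors, had both LKO livers (1.00 and 1.10 FPKM) below both WT livers (1.32 and 2.00 FPKM), with a log2 fold change of −0.59 (unadjusted p = 0.116). Spry4, a feedback inhibitor, was at 1.46 and 1.32 FPKM in WT, 1.42 FPKM in LKO1 and 0.601 FPKM in LKO2, and passed the threshold without LKO1 (−1.09) while it was 0.04 without LKO2.

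Among the 24 regulators of the 7 genes, 23 were tested, none passed the threshold and their median log2 fold change was −0.00. Ppara, the fatty acid sensor that drives Fgf21 and Angptl4, was at 1.58 and 1.80 FPKM in WT and at 2.39 and 3.34 FPKM in LKO livers, with both LKO livers above both WT livers (log2 fold change 0.71, SE 0.35, 95% interval −0.03 to 1.45, unadjusted p = 0.0592, adjusted p = 1 by limma). Its partner for Fgf21, Creb3l3, differed little, at 51.5 and 65.8 FPKM in WT and 52.4 and 64.6 FPKM in LKO livers. Mlxipl, which encodes the glucose-responsive factor ChREBP, was at 6.83 and 15.4 FPKM in WT and at 4.96 and 9.86 FPKM in LKO livers, in the same order of livers as Fgf21 (log2 fold change −0.55, unadjusted p = 0.231). It passed without WT1 (−1.13) or LKO2 (−1.04) and was 0.04 without WT2. Atf5, a stress-response factor, was at 163 and 213 FPKM in WT, 45.2 FPKM in LKO1 and 382 FPKM in LKO2 (log2 fold change −0.50, SE 0.67, unadjusted p = 0.467). Without LKO1 its value was 1.04, and without LKO2 it was −2.04 and passed the threshold.

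Of 11 PPARα targets, all tested, none passed the threshold. Cyp4a14 was at 211 and 386 FPKM in WT and at 109 and 297 FPKM in LKO livers (log2 fold change −0.66, unadjusted p = 0.159, and 0.06 without LKO1), and was lowest in LKO1 and highest in WT2, as Fgf21 was. Cidec, which encodes a lipid droplet protein, was at 5.01 and 4.45 FPKM in WT, 43.8 FPKM in LKO1 and 2.55 FPKM in LKO2, and Acot1 was at 3.34, 17.2, 4.91 and 3.35 FPKM in WT1, WT2, LKO1 and LKO2. On leaving out 1 liver, Cyp4a14 passed the threshold without WT1 (−1.10) or LKO2 (−1.39), Cidec without LKO2 (3.19, against −0.87 without LKO1), and Acot1 without WT1 (−2.06) or LKO1 (−1.16, against 0.27 without WT2). Of 9 ATF4 targets, 7 were tested and none passed. Their median was −0.20, and 5 of the 7 were lowest in LKO2, which was lowest for 12.9% of all tested genes. Psat1, of the same list, went the other way, at 0.308 FPKM in LKO1 and 2.63 FPKM in LKO2. Atf4 itself was at 12.3 FPKM in LKO1 and 21.9 FPKM in LKO2, and both genes were highest in LKO2. Asns, asparagine synthetase, was at 13.5 and 8.36 FPKM in WT and at 11.7 and 7.30 FPKM in LKO livers. Cth, which encodes cystathionine γ-lyase, was at 32.4 and 44.3 FPKM in WT and at 68.7 and 44.2 FPKM in LKO livers (log2 fold change 0.54, unadjusted p = 0.147). Sesn2 had both LKO livers (1.00 and 0.729 FPKM) below both WT livers (1.10 and 1.57 FPKM), and Chac1 was at 1.86 and 1.04 FPKM in WT and at 1.09 and 0.698 FPKM in LKO livers.

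Of the 22 other hepatokine genes, all tested, none passed the threshold, and their median log2 fold change was 0.03. The closest was Angptl8, which is induced by feeding. It was at 13.1 and 16.0 FPKM in WT and 17.8 FPKM in LKO2, and at 0.622 FPKM in LKO1, where an estimated 42 reads stood against 919 to 1119 in the other 3 livers. The log2 fold change was −2.02 (SE 0.94, unadjusted p = 0.0501, adjusted p = 1 by limma) from all livers. It was 0.30 without LKO1 and −4.34 without LKO2, where LKO1 alone stood for the genotype. The 2 LKO livers were 28.7-fold apart. Enho, which encodes adropin, was the only gene of all the pathway lists with an unadjusted p under 0.05 and is named for that reason. It was at 10.1 and 11.6 FPKM in WT and at 4.64 and 7.98 FPKM in LKO livers, a log2 fold change of −0.82 (95% interval −1.59 to −0.04) that missed the 2-fold limit. It passed the threshold without LKO2 (−1.20) and was −0.43 without LKO1. Manf, a secreted endoplasmic reticulum stress protein, was at 65.6 and 44.8 FPKM in WT, 60.7 FPKM in LKO1 and 158 FPKM in LKO2 (log2 fold change 0.85, unadjusted p = 0.0648), and it passed the threshold without LKO1 (1.54) or WT1 (1.13) and was 0.16 without LKO2. The abundant carriers Ahsg (log2 fold change 0.05, 95% interval −0.61 to 0.72) and Rbp4 (−0.09, −0.79 to 0.60) had intervals within 2-fold.

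Fetub lies on chromosome 16 beside the related genes Ahsg (fetuin-A), Hrg, Kng2 and Kng1. All 4 neighbours had log2 fold changes above 0, from 0.05 to 0.26 with a median of 0.22, and none passed the threshold. Over all tested genes, 53.9% were below 0. Kng2 was at 349 and 318 FPKM in WT and at 373 and 427 FPKM in LKO livers, without overlap, and Kng1 was at 243 and 215 FPKM in WT and at 239.5 and 311 FPKM in LKO livers. Ahsg transcripts stood 16 to 21.8 times above those of Fetub in length-normalised level. Around Angptl4 and Angptl6, 8 of the 10 other angiopoietin-like and lipase genes were tested, with a median of 0.04 and none past the threshold. Lipc, hepatic lipase, was at 9.81 and 17.1 FPKM in WT and at 16.7 and 18.2 FPKM in LKO livers (log2 fold change 0.42, unadjusted p = 0.259).

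**Figure D5:**
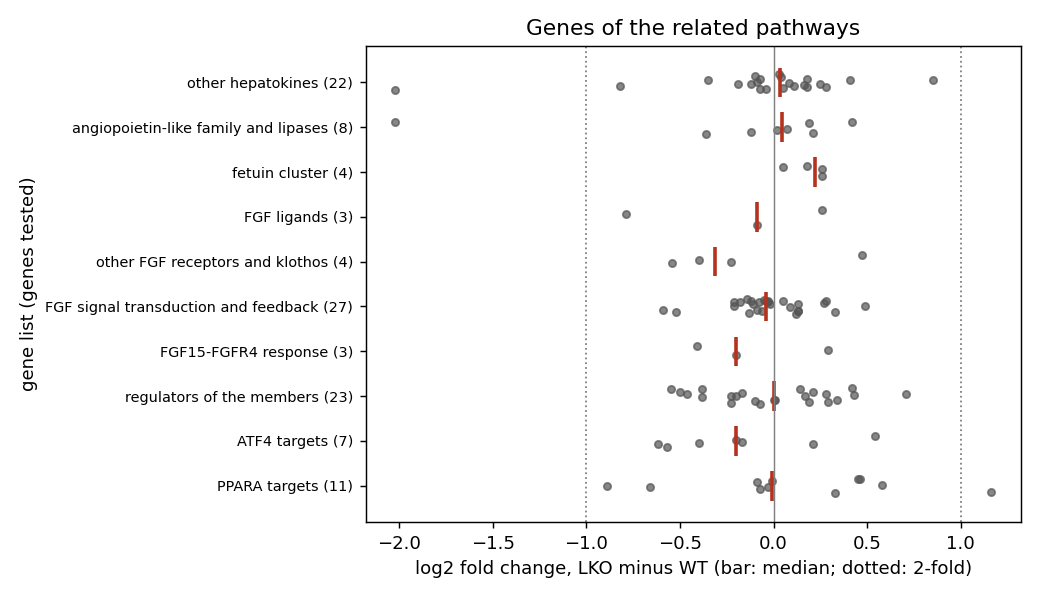
Log2 fold change of LKO against WT livers for every tested gene of each related list, 1 point a gene, with a red bar at the median and dotted lines at a 2-fold difference. The medians lie between −0.31 and 0.22, and the points beyond 2-fold are Angptl8, which stands in 2 lists, and Cidec.

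In all, 109 of 139 genes of these lists were tested and 0 passed the threshold, against 0.980% of all tested genes. In 23 of the 109 (21.1%) both LKO livers lay outside both WT livers, near the 20.7% of all tested genes. The lists were chosen with earlier results of these data known. The shares that follow come from fits with 1 sample in a genotype and describe these livers alone. Leaving out WT1 put 5 of the 109 (4.59%) past the threshold, against 1.87% of all tested genes. Leaving out LKO1 put 8 (7.34%) past it, against 4.47%, and leaving out LKO2 put 14 (12.8%) past it, against 3.64%. Without WT2 the count was 0, against 0.632%.

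The genes whose centred log2 levels over the 4 livers were most like those of 3 of the hormones were sought among 7727 others of mean 1 FPKM or more, as a description over 4 points that share their libraries. Nearest to Fgf21 were Inhbc, which encodes an activin subunit (root mean square log2 difference 0.166), Nr1i3, the nuclear receptor CAR (0.179), and Pycrl (0.207). Nr1i3 was at 16.0 and 37.3 FPKM in WT and at 9.37 and 25.0 FPKM in LKO livers. Nearest to Gdf15 were the channel gene Hcn3 (0.166), Serpina6, which encodes corticosteroid-binding globulin (0.172), and Pklr, liver pyruvate kinase (0.230). Serpina6 was at 12.6 and 46.0 FPKM in WT and at 50.4 and 20.3 FPKM in LKO livers. Nearest to Angptl4 were Ndufb4 (0.014), Kansl3 (0.021) and Bckdha (0.024).

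In whole liver, fewer cells of a type and less RNA per cell cannot be told apart. The 8 hepatocyte markers summed to 28486 to 35526 FPKM in WT and 30423 to 34561 FPKM in LKO livers, with a median log2 fold change of 0.09, 0 of 8 past the threshold and all 8 above 0 FPKM in each group. All 8 macrophage markers had log2 fold changes above 0 (median 0.80), and Cd68 and Vsig4 rose past the threshold. Cd68 kept its call without any 1 liver (1.05 to 1.88), while Vsig4 passed without LKO1 (1.85) and not without LKO2 (0.15), WT1 (0.90) or WT2 (1.10). Their sum was 38.2 and 38.6 FPKM in the WT livers, 49.3 FPKM in LKO1 and 101 FPKM in LKO2. Neutrophil markers, 6 of 8 tested and none past the threshold, summed to 4.46 to 11.7 FPKM in WT and 8.20 to 16.6 FPKM in LKO livers. These sums came mostly from S100a9, at 8.64 and 2.99 FPKM in WT and at 12.3 and 6.1 FPKM in LKO livers. Of the 6 tested, 4 were above 0 and 2 below. Ly6g had an estimated 1 and 0 reads in WT and 4 and 1 in LKO livers. All 8 sinusoidal endothelial markers were below 0 (median −0.25), as were 53.9% of all tested genes. They summed to 34.6 to 35.3 FPKM in WT and 26.5 to 35.3 FPKM in LKO livers. The 8 stellate markers had a median of 0.04 (sums of 19.4 to 23.3 FPKM) and the 6 cholangiocyte markers, 4 of them tested, a median of −0.23 (3.21 to 4.67 FPKM). None of these 3 lists had a gene past the threshold. Adipocyte and pancreatic acinar cells, other sources of lipid-related and secreted proteins, were checked by 6 and 10 markers. Their sums were 6.72 to 13.5 FPKM and 0.866 to 1.09 FPKM over the 4 livers, and came mostly from 1 gene each, Pnpla2 at 6.72 to 13.5 FPKM and Amy2a5 at 0.866 to 1.03 FPKM, the only markers tested. Of the rest, Cela2a reached 0.196 FPKM in WT1 (an estimated 17 reads), and the defining markers Adipoq, Lep, Cpa1 and Ptf1a were at or near 0 in all 4. The part of other cell types in the values of the 7 genes was not tested.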

How the data were processed

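Whole liver RNA of 4 mice (2 WT, 2 LKO) was sequenced. The authors deposited FPKM, a value per gene already divided by transcript length and library total; each entry names 1 transcript. The submitters' processing notes name HISAT2 2.0.4, StringTie 2.1.4 and GRCm38, while the methods of the study name Cufflinks. No normalization between libraries is stated, and the labels and methods differ on the library kit. Read totals were estimated from the steps between low FPKM values (88.5% to 89.5% lay within 0.1 of a whole read) with lengths from GENCODE M21, found for 98.3% of the entries. Genes of mean 0.1 FPKM or more entered limma 3.58.1 under R 4.3.3 (eBayes with trend), run on log2(FPKM + 0.1), a scale that understates differences of low genes, with Benjamini-Hochberg adjustment over all tested genes, after the procedure was tested on simulated data. Named from each related list were genes past the threshold, the 2 most abundant and the 2 with the largest difference, and for Fgf21, Gdf15 and Angptl4 the 3 genes nearest in profile. A gene this rule names among the PPARα targets is not reported here. Fgf15, Gfral, Ret, Enho, Psat1, Atf4, the receptor shares and the named markers were chosen after values were seen. The genes and lists were chosen with earlier results of these data known. Alternatives were pseudocounts, filters, scalings, a fit without trend, a replicate block, voom on estimated reads and leaving out each liver.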

Additional observations from a re-analysis of the deposited data

How the results depend on the processing

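The 9 other settings of scale, filter, scaling and model left 0 of the 7 genes past the threshold and kept the direction of each, except that Klb went from 0.01 to −0.01 with a pseudocount of 1, and had no value when genes under a mean of 1 FPKM were left out. Over these settings Fgf21 ran from −0.81 to −0.72, Gdf15 from 0.52 to 0.67 and Fgfr4 from −0.33 to −0.12. Smarca4 dropped to −0.85 with a pseudocount of 1, under 2-fold, and kept its call in the other 8. Leaving out 1 liver put 0 to 3 of the 7 genes and 0 to 14 related genes past the threshold. The fold changes then ran from −1.73 to 0.15 for Fgf21, −0.45 to 1.75 for Gdf15 (−0.01 without LKO1), −0.36 to 0.19 for Angptl4, −0.75 to 0.07 for Angptl6, −0.29 to 0.05 for Fetub, −0.37 to 0.40 for Klb (−0.12 without LKO2) and −1.31 to 0.74 for Fgfr4. Among related genes, Angptl8 alone (1 gene) passed when genes under 1 FPKM were left out, and with voom; the cause was not tested. Over all genes the count of 121 became 18 with a pseudocount of 1, 80 with no filter, 68 without genes under 1 FPKM, and 78 to 552 without 1 liver. With a replicate block it was 108, and 0 of the 7 genes passed, although the unadjusted p of Fgf21 went from 0.164 to 0.0213 (adjusted p = 1 by limma). Across genes, the deviations of same-numbered livers from their group means had a correlation of 0.0307 (2 pairs), a measure blind to a shift shared by all genes. WT1 and LKO1 were lowest for 31.5% and 46.6% of the tested genes, and WT2 and LKO2 highest for 42.1% and 41%. The main fit did not pair livers by number, and whether the numbers mark a pair or a batch was not tested. Depth limited the low genes most, with Klb at 160 to 290 reads and Ret at 1 read in each of 2 livers.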
